A study of Arabidopsis thaliana with 8 samples.

Results

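The genes described here are nuclear genes of Arabidopsis thaliana whose transcripts were lower in seedlings raised on lincomycin, both in darkness and after red light. They were chosen by these arrays' own intensities. A probe set (the group of short DNA probes that reports a transcript on an Affymetrix array) was taken when its mean log2 intensity with lincomycin lay 0.8 or more below that without it in both lights, and when in each light both arrays with lincomycin lay below both arrays without it. Of 22746 probe sets, 113 met these values. Taken out were 2 probe sets of the plastid genome and 7 of named photosynthesis, chlorophyll, rhodanese-like and lipid transfer genes, which left 104 members. Exactly 1 gene was listed for 43 members, 42 of which matched a RefSeq gene of assembly TAIR10.1, and no gene was listed for the other 61. One of those 61, 244990_s_at, may not be nuclear: all 32 probe sets with a listed gene and an ID within 20 of it belonged to the plastid genome, and without it there were 103 members.

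Lincomycin binds the bacterial-type ribosome of plastids and blocks protein synthesis there. The nucleus encodes most plastid proteins, and plants in which plastid protein synthesis is blocked are known to lower the transcripts of many nuclear photosynthesis genes, a plastid-to-nucleus communication called retrograde signalling. In darkness seedlings make etioplasts, plastids with few thylakoids, which turn into chloroplasts under light sensed in part by phytochrome, the red light receptor.

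The 4 groups were all wild type Col-0 seedlings, 4 days old and grown in darkness on half-strength Murashige and Skoog medium with 1% sucrose, harvested whole. They were the dark lincomycin group, the dark group without lincomycin, the red lincomycin group and the red group without lincomycin, and red means 30 min of red light before harvest. Each had 2 arrays. The dose of lincomycin is uncertain, with 220 µg/ml stated in the protocol and 200 µg/ml in the sample source. Nothing says that the 2 arrays of a group came from separate cultures, so every SE and p below reflects the spread of these arrays alone, which may be technical. Whole seedlings hold many cell types, and in such bulk RNA fewer cells of a type and less RNA per cell cannot be told apart.

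Some arrays stood apart. The control probe sets for the 3' and 5' ends of actin and GAPDH, whose ratio rises with RNA degradation, gave ratios of 18.7 and 23.2 on replicate 1 of the dark group. On the other 7 arrays they ran from 3.17 to 6.90 for actin and from 2.64 to 5.47 for GAPDH. The ubiquitin control stood out less, with a ratio of 3.11 on that replicate, against 2.40 to 2.80 on the other 7 arrays. The hybridisation spikes, RNA controls added in known amounts, had a mean log2 value of 6.88 on the array where the members are highest, the red group's replicate 1, against 7.63 to 8.91 elsewhere, and their part in the result was not tested. Replicates differed with a standard deviation (log2, over all probe sets) of 0.21 in the dark lincomycin group, 0.54 in the dark group, 0.22 in the red lincomycin group and 0.44 in the red group. Median intensity per array ran from 32.0 to 36.1. Precision is limited throughout by having 2 arrays per group.

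The members themselves showed that spread in the groups without lincomycin. In the red group 94 of the 104 members (90.4%) were higher on replicate 1 than on replicate 2, against 53.7% of all probe sets. Their median log2 intensity, relative to each probe set's mean over the 8 arrays, was -0.65 and -0.58 on the dark lincomycin arrays and 0.74 and 0.57 on the dark arrays. It was -0.62 and -0.71 on the red lincomycin arrays and 0.91 and 0.29 on the red arrays. The lincomycin arrays thus lay close together, while replicate 2 of the red group lay nearer to them than any other array without lincomycin did. Set against replicate 2 of the red group alone, the members' median lincomycin change after red light was -0.85, and 54 of 104 reached -0.8. Set against replicate 1 alone it was -1.47, and 100 reached it. In darkness the median was -1.13 against replicate 2 of the dark group, the one without the high control ratios, with 85 members at -0.8 or lower, and -1.31 against replicate 1. The rule run without replicate 1 of the red group took 58 probe sets, 54 of them among the 104, and without replicate 2 of it 169. Run without replicate 1 of both the dark and the red group it took 86, of which 48 were among the 104. What part the array differences have in the list was not tested.

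**Figure D1:**
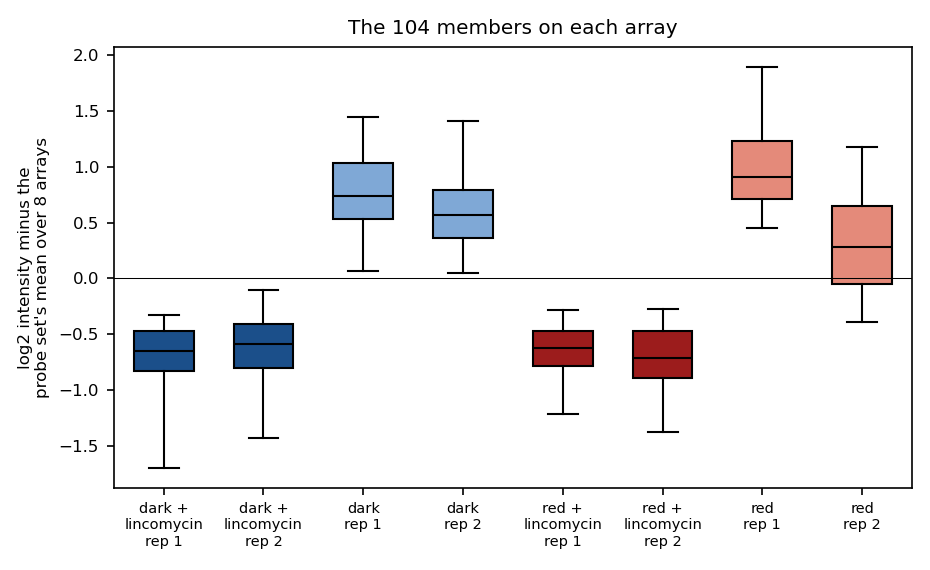
Log2 intensity of the 104 members on each of the 8 arrays, relative to each probe set's own mean over the arrays; boxes are quartiles, the line is the median and whiskers reach the 5th and 95th percentiles. The medians lie between -0.71 and -0.58 on the 4 lincomycin arrays and at 0.74, 0.57, 0.91 and 0.29 on the arrays without lincomycin.

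The members are lower on lincomycin by construction of the list, so the sizes below are a description and carry no test. The median lincomycin change was -1.21 (log2) in darkness, a 2.31-fold lower level, and -1.14 after red light. Over all 22746 probe sets the medians were -0.01 in both lights. The members reached -4.45 in darkness and -5.84 after red light. At least 2-fold lower in both lights were 49 members, of which 13 had a listed gene. At least 4-fold lower in both were 10, none of them with a listed gene. The difference was larger in darkness for 53 members and larger after red light for 51, and the 2 changes differed by at most 0.5 (log2) for 81 of 104. Across the 104 members the change in darkness and that after red light, which use different arrays, correlated at r = 0.82, a description over probe sets that share arrays and a common cut at -0.8.

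**Figure D2:**
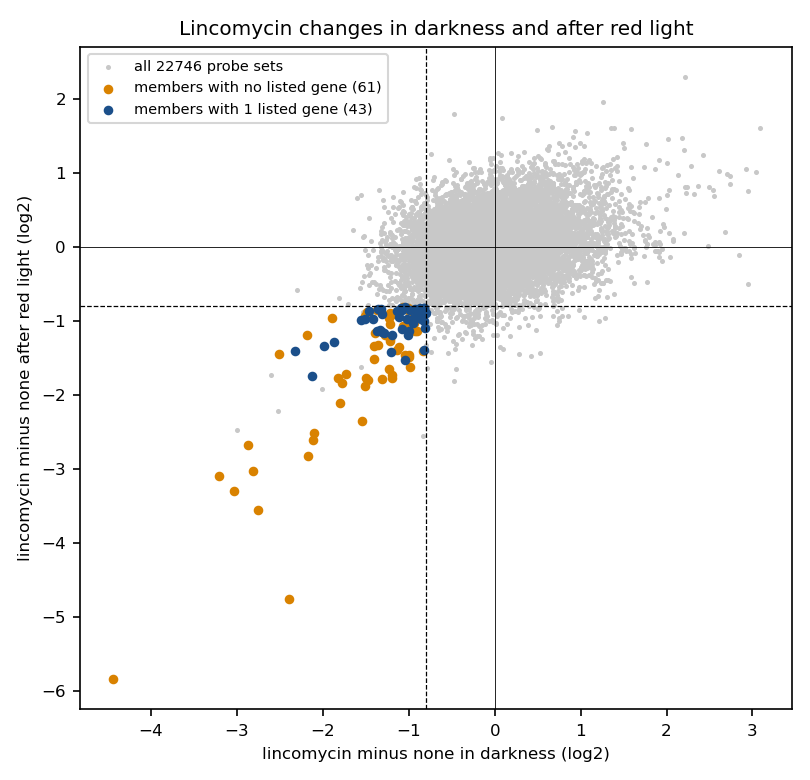
Lincomycin change in darkness (x axis, log2, lincomycin minus none) against that after red light (y axis) for all 22746 probe sets in grey, the 43 members with a listed gene in blue and the 61 without in orange; dashed lines mark -0.8. The blue points reach down to -2.33 in darkness and -1.74 after red light, while the orange ones extend to -4.45 and -5.84.

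In darkness 764 of 22746 probe sets (3.36%) were 0.8 or more lower on lincomycin with no overlap between arrays, and after red light 278 (1.22%). The 113 shared by both (0.497% of all) are 14.8% of the first set and 40.6% of the second. The opposite movement was rarer: 4 probe sets were lower in darkness and higher after red light by the same values, and 2 the reverse. In a limma fit over all 8 arrays, 24 of the 104 members were lower at a Benjamini-Hochberg adjusted p under 0.05 for lincomycin in darkness, where 0.532% of all probe sets were. After red light 5 members were, where 0.022% of all probe sets were, and these 5 members were all the probe sets called lower. Since the same values chose the members, nothing is read from these counts. The split of all calls by direction depended on scaling. In darkness 102 probe sets were higher and 121 lower as deposited, 231 and 110 with array medians shifted to a common value, and 143 and 93 after quantile normalization. After red light the split was 1 and 5 as deposited, 2 and 16 with medians shifted, and 0 and 1 after quantile normalization.

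The members' mean log2 intensity over the 8 arrays had a median of 6.91, against 5.08 over all probe sets. Intensity also depends on how well a probe binds, so this describes the signal and not transcript levels, and a dim probe set has little room to be 0.8 lower. On lincomycin, 3 members in darkness and 2 after red light had a group mean below log2 3.51, the 20th percentile of all values.

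Several members with a listed gene are known as thylakoid proteins. This and the following groupings by known function only order the text, were made after the values were seen and are not complete. CaS, the calcium sensing receptor of the thylakoid membrane, had intensities of 34.8 and 25.4 in dark lincomycin seedlings, against 145 and 81.7 in dark seedlings. Red seedlings had 34.3 and 32.9 with lincomycin, against 126 and 53.7 without. Its lincomycin change was -1.88 in darkness and -1.29 after red light (log2, SE 0.43 each, 2 arrays per group). The 4 lincomycin arrays spanned 25.4 to 34.8 and the 4 without it 53.7 to 145, a separation that the rule requires within each light.

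TROL, a rhodanese-like thylakoid protein that anchors ferredoxin-NADP reductase at the end of photosynthetic electron transport, had 67.9 and 58.0 in dark lincomycin seedlings, against 132.5 and 199.6 in dark seedlings. After red light the values were 69.0 and 50.5 with lincomycin, against 142 and 119 without. The changes were -1.37 in darkness and -1.14 after red light (SE 0.25). AT1G52220, also called CURT1C, belongs to the proteins that curve thylakoid membranes at the margins of grana. It had 359 and 389 in dark lincomycin seedlings, against 990.2 and 553 in dark seedlings. Red seedlings held 385 and 419 with lincomycin, against 932 and 558.5 without. Replicate 1 was the higher array in both groups without lincomycin, and the changes were -0.99 and -0.85 (SE 0.32). AT4G27700, another protein with a rhodanese domain, was at -1.14 and -0.87 (SE 0.22).

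AT5G13770, a pentatricopeptide repeat protein (a family that binds organelle RNA), had the lowest mean change of all members with a listed gene. It had 30.3 and 20.7 in dark lincomycin seedlings, against 138 and 86.3 in dark seedlings. Red seedlings had 28.9 and 26.4 with lincomycin, against 96.7 and 88.1 without. The changes were -2.12 and -1.74 (SE 0.26). AT2G34620, of the mTERF family of organelle gene expression factors, had 13.9 and 13.2 in dark lincomycin seedlings, against 26.7 and 21.5 in dark seedlings, and after red light 13.6 and 14.4 with lincomycin, against 45.8 and 29.7 without. The changes were -0.82 in darkness and -1.40 after red light (SE 0.22).

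**Figure D3:**
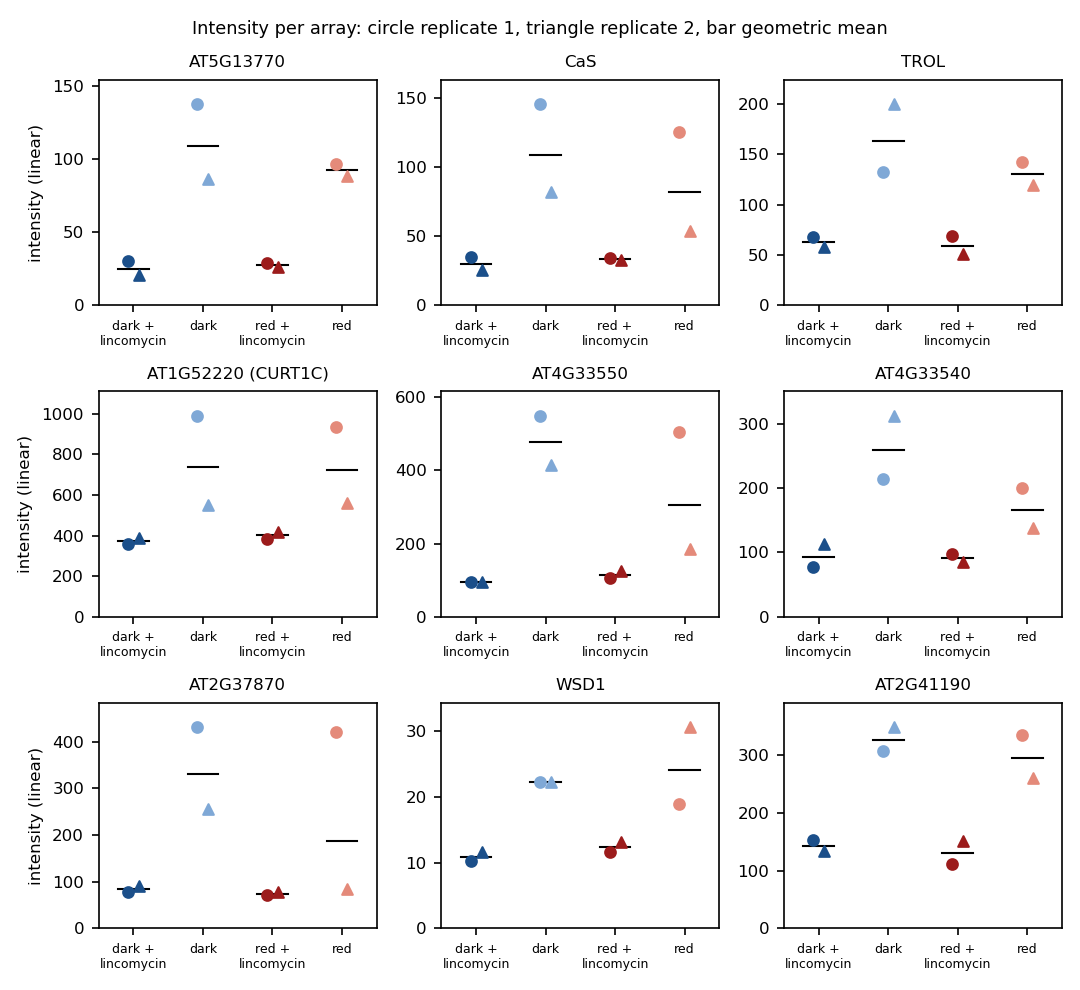
Intensity (linear scale) of 9 members with a listed gene on each array, circles for replicate 1 and triangles for replicate 2, bars for the geometric mean of a group. The lincomycin groups lie below their partners in every panel, as the rule requires. The red group's replicate 2 comes close to the red lincomycin arrays for AT2G37870, at 83.4 against 70.5 and 78.5.

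AT4G33550, of the lipid transfer and protease inhibitor superfamily, had 94.2 and 95.8 in dark lincomycin seedlings, against 549.7 and 415 in dark seedlings. After red light it had 105 and 126.5 with lincomycin, against 505 and 186 without. The changes were -2.33, the lowest in darkness among the members with a listed gene, and -1.41 (SE 0.42). AT2G37870 of the same superfamily had 78.0 and 89.8 in dark lincomycin seedlings, against 431 and 255 in dark seedlings. After red light it had 70.5 and 78.5 with lincomycin, against 421 and 83.4 without. Its change after red light of -1.33 (SE 0.66) rested on replicate 1 of the red group, since replicate 2 lay just above the lincomycin arrays. In darkness it was at -1.98.

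WSD1, a wax ester synthase of the stem cuticle, was the 1 measured gene of a list of 10 wax, cutin and lipid transfer genes. It had 10.2 and 11.7 in dark lincomycin seedlings, against 22.2 and 22.3 in dark seedlings, and after red light 11.6 and 13.1 with lincomycin, against 19.0 and 30.6 without. The replicates were close in darkness, and the changes were -1.03 and -0.97 (SE 0.23). AT4G34150, with a C2 domain, was at -1.01 and -1.19 (SE 0.52). Its red group held 257 and 78.0, against 60.0 and 64.0 with lincomycin, so here again replicate 2 lay near the lincomycin arrays.

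The genes AT4G33540 and AT4G33550 are direct neighbours among the protein-coding genes of chromosome 4 in TAIR10.1, and both are members. No other pair was closer than 30 genes apart. AT4G33540, of the metallo-beta-lactamase family, had 78.0 and 112 in dark lincomycin seedlings, against 214 and 312 in dark seedlings. After red light it had 97.4 and 84.9 with lincomycin, against 201 and 138 without, and the changes were -1.46 and -0.87 (SE 0.28). The replicates of these neighbours did not move alike: in the dark group AT4G33550 was higher on replicate 1 and AT4G33540 on replicate 2. Of the 42 members with a chromosome, 8, 9, 6, 7 and 12 lay on chromosomes 1 to 5, shares of 19.0%, 21.4%, 14.3%, 16.7% and 28.6%, against 25.8%, 16.5%, 20.5%, 14.7% and 22.5% of all probe sets with exactly 1 nuclear gene.

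Transport and metabolism were represented by single genes. AT2G41190, of the amino acid transporter family, had 152 and 133 in dark lincomycin seedlings, against 306 and 348 in dark seedlings, and after red light 111 and 151.5 with lincomycin, against 335 and 260.3 without. The changes were -1.20 in darkness and -1.19 after red light (SE 0.21). AT3G21670, the nitrate transporter family member NPF6.4, was at -0.86 and -0.97 (SE 0.26). AT1G66430, a sugar kinase of the pfkB family, was at -1.08 and -0.85 (SE 0.23). AT2G29290, of the tropinone reductase-like dehydrogenases, was at -1.20 and -1.42 (SE 0.28), and AT1G52870, of the Mpv17 and PMP22 family of organelle membrane proteins, at -1.29 and -1.16 (SE 0.28). AT5G18600, a glutaredoxin, was at -1.31 and -0.91 (SE 0.35), and its dark value rested largely on replicate 1 of the dark group, at 501 against 212 on replicate 2, with 128.5 and 135 on the lincomycin arrays.

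The serine carboxypeptidase-like genes scpl40 and SCPL45 were at -0.87 and -0.83 in darkness and at -0.82 and -0.83 after red light (SE 0.34 and 0.38). AT1G79720, an aspartyl protease, was at -0.95 and -1.02 (SE 0.28), AT3G09410, of the pectin acetylesterase family, at -0.81 and -1.09 (SE 0.38), and AT3G56080, of a methyltransferase family, at -1.36 and -0.84 (SE 0.38). Some of these rested largely on 1 array. Without replicate 1 of its group without lincomycin, SCPL45 was at -0.35 in darkness and -0.36 after red light. AT3G09410 was at -0.26 in darkness without replicate 2 of the dark group. AT3G56080 was at -0.27 after red light without replicate 1 of the red group. Without the other array each of these changes was larger.

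The other genes among the 20 with the lowest mean change were AT2G35260 (-1.04 in darkness and -1.53 after red light), AT3G47295 (-1.56 and -0.98), AT5G44580 (-1.51 and -0.97) and AT3G29270 (-1.31 and -1.15). After red light AT3G47295 was at -0.29 without replicate 1 of the red group and -1.67 without replicate 2 of it. AT5G44580 was likewise at -0.40 and -1.53. AT5G38980 was at -1.33 and -1.12, AT5G57785 at -1.42 and -0.97, and AT5G35970 at -1.07 and -1.11. CPUORF47, a conserved peptide encoded upstream of another reading frame, was at -0.94 and -0.95 (SE 0.19). The 9 listed members not named elsewhere in the text lay in darkness between -1.32 (AT1G21500) and -0.82 (AT1G72030), and after red light between -1.14 (AT4G38260) and -0.83 (AT1G72030). Among them AT5G15190 was separated by little on replicate 2, at 38.5 in dark lincomycin seedlings, against 39.2 in dark seedlings, and at 59.1 in red lincomycin seedlings, against 60.6 in red seedlings. A gene with another probe set was AGL26, for which 2 are listed. The member, 246852_at, was at -0.88 in darkness and -0.85 after red light (SE 0.29). The other, 246851_at, was at 0.23 and 0.02, with a mean log2 intensity of 2.88 that lies below the 20th percentile. A probe set this dim has little room to be lower, so it cannot check the member, and the change of this gene remains uncertain.

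**Figure D4:**
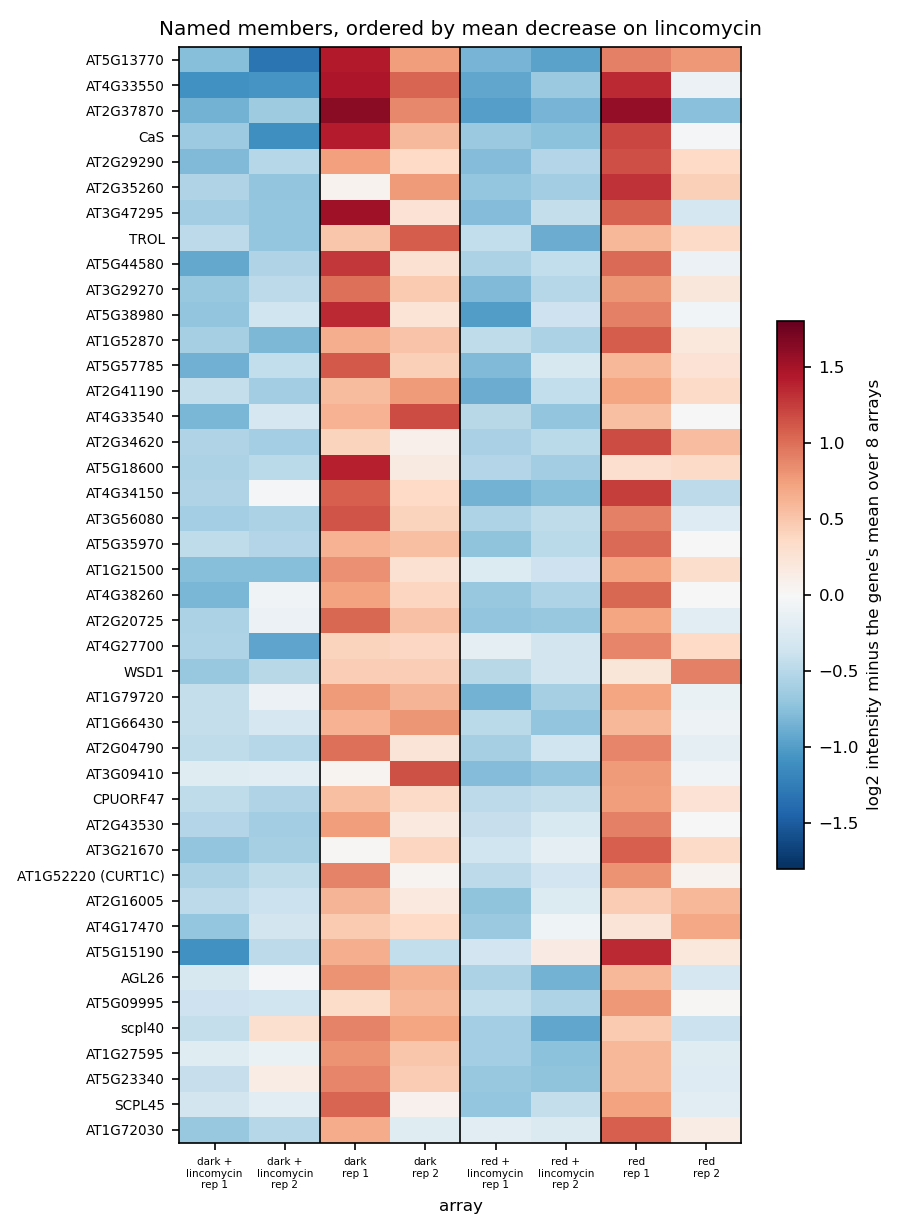
Log2 intensity of the 43 members with a listed gene on the 8 arrays, each row relative to its own mean and rows ordered by mean lincomycin change; red is higher and blue lower. The lincomycin columns are blue for nearly all genes, and replicate 2 of the red group is paler than replicate 1 for most, as the medians of 0.29 and 0.91 over all members give.

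At the edge of the rule, AT2G43530, a defensin-like gene, was inside with changes of -1.05 and -0.81, and AT5G23340 with -0.80 and -0.89. Just outside were HPR, the hydroxypyruvate reductase of photorespiration, at -0.79 in darkness and -1.32 after red light, and AT1G14240 at -1.22 and -0.78.

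The members with no listed gene held the largest changes and can be given only by probe set. A name ending in _s_at marks a probe set whose oligonucleotides match several transcripts, so its value may mix genes. The lowest was 255997_s_at, with 17.9 and 41.1 in dark lincomycin seedlings, against 337 and 1033 in dark seedlings. After red light it had 21.9 and 14.4 with lincomycin, against 1315 and 791 without, and the changes were -4.45 and -5.84 (SE 0.60). Next was 267002_s_at, with 41.8 and 83.1 in dark lincomycin seedlings, against 153 and 628 in dark seedlings, and after red light 47.2 and 35.2 with lincomycin, against 1150.5 and 1064 without. The replicates in darkness were far apart, and the changes were -2.40 and -4.76 (SE 0.62). The median change of the 61 was -1.28 in darkness and -1.35 after red light, and that of the 43 with a listed gene was -1.07 and -0.97. The 5 members called lower after red light, chosen here after their values were seen, were all in this set: 263345_s_at (-3.04 in darkness and -3.30 after red light), 256309_at (-3.20 and -3.10), 258239_at (-2.18 and -2.83), 259491_at (-2.12 and -2.61) and 259161_at (-2.11 and -2.51).

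Lists of other plastid genes gave mixed values for the few genes that had a named probe set. List genes without one may be among the 61 members with no listed gene, which was not tested. A list of 34 nuclear photosystem and electron transport genes had 6 with a named probe set, none of them a member. For lincomycin in darkness 3 of the 6 were called lower in limma, against 0.532% of all probe sets, and after red light 0, against 0.022%. Those 3 were PSAE-1, PSAN and AT1G51400, which the rule leaves out by name. Nothing is read from these counts, since the lists were chosen with earlier results of these data known. The other 3 of the 6 were PSBW, a small photosystem II subunit, at -0.69 and -0.76, ATPC1 of the plastid ATP synthase at -0.50 and -0.23, and PSBY at 0.34 and -0.72. Of 10 photorespiration genes 3 were measured: HPR as above, GLDT of glycine decarboxylase at -0.70 and -0.89, and GLYK, glycerate kinase, at 0.34 and -0.02, with 0 called in either light. In the 8 measured tetrapyrrole genes, the route to chlorophyll and haem, the medians were -0.56 in darkness and -0.61 after red light, and 0 were called in either light by limma. CHLM, a methyltransferase of chlorophyll synthesis, was at -0.55 and -0.84. TAPX, the thylakoid ascorbate peroxidase, was at -0.94 and -0.78, and the peroxiredoxin 2CPA at 0.92 and 0.02. NTRC, a plastid thioredoxin reductase, was at -0.55 and 0.48, and the 5 measured plastid redox genes had medians of -0.13 and -0.04. The 3 measured nuclear genes of plastid ribosomal proteins had medians of 0.29 and 0.12. Of the 3 measured Calvin cycle genes PRK, left out by name, was called lower in darkness in limma, SBPASE was at -0.87 and -0.49 and RCA, rubisco activase, at -0.02 and -0.65. Of 20 antenna genes 3 were measured. LHCB4.1 was at -0.25 and -1.04, LHCB4.2 at 0.18 and -1.20 and LHCB4.3 at -0.27 and -0.63, with 0 called in either light. DPE1, the 1 measured starch gene, was at -0.35 and 0.29.

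Lists with no tie to the plastid give the scale of change to set beside these. The 8 measured reference genes, of which none is a member, had medians of -0.23 in darkness and -0.14 after red light. UBC21, a ubiquitin-conjugating enzyme gene, was at -0.82 and -0.30, and TIP41-like at -0.67 and -0.16. In darkness a reference gene could thus be as low as the threshold used for the members. Of the root markers, EXPA7 was at 1.03 and -0.54, EXPA18 at 0.59 and -0.40 and PYK10 at 0.12 and 0.25, and the guard cell marker FAMA was at 0.07 and 0.14. All 3 measured root markers were above 0 in darkness, beside the lower values of the members, but after red light only PYK10 was. In limma 0 of the 3 were called in either light, and their part in the result was not tested. Of the marker lists for epidermis and seed reserves 0 genes had a named probe set, so the mix of tissues could be checked only in part.

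Light averaged over both media was the comparison least tied to the rule: with equal spread in all groups it would be independent of the 2 lincomycin changes. The spread was not equal, since replicates differed with the standard deviations of 0.21 and 0.22 on lincomycin and 0.54 and 0.44 without it given above. The light values therefore covary with the values that chose the members, and the counts over the members below are a description. The comparison asks whether the members also responded to 30 min of red light. Over the 104 members the median light change was -0.05, with quartiles of -0.25 and 0.14, against -0.01, -0.13 and 0.09 over all probe sets. It was above 0 for 48 members and below 0 for 56. The sign turned on single arrays: the median was -0.19 with 30 members above 0 without replicate 1 of the red group, 0.11 with 69 above 0 without replicate 2 of it, and 0.03 with 57 above 0 without replicate 1 of the dark group. In limma 2 members were called higher, where 0.237% of all probe sets were (54 of 22746), and 0 lower, where 0.0615% were. An unadjusted p under 0.05 was reached by 16 members, 15.4%, against 7.94% of all probe sets. That count was 5 members (4.81%, against 4.67% of all probe sets) without replicate 2 of the dark lincomycin group, 5 (4.81%, against 4.55%) without replicate 2 of the red lincomycin group, 8 (7.69%, against 5.05%) without replicate 1 of it and 32 (30.8%, against 9.34%) without replicate 1 of the red group. With low values raised to the 20th percentile it was 6 (5.77%, against 8.58%). No excess of members is read from it. Without replicate 1 of both the dark and the red group, the members' median light change was -0.18, with 39 members above 0. Each group without lincomycin then has 1 array, so member calls from that fit are not given. The procedure was also run on simulated data with equal spread on all 8 arrays, which does not cover the unequal spread seen here.

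Both called members lacked a listed gene and were chosen here after their values were seen. The first, 267517_at, had 324 and 322 in red lincomycin seedlings, against 63.1 and 72.2 in dark lincomycin seedlings. Without lincomycin it had 585 and 548.5 after red light, against 116 and 172 in darkness. It was therefore higher in red light and lower on lincomycin, with all 4 groups apart. Its light change averaged over both media was 2.13 ± 0.14 (log2, SE), with limma adjusted p = 0.00308, and the changes in the separate media were 2.26 on lincomycin and 2.01 without. It kept its call without each of the 8 arrays in turn, with adjusted p from 0.00266 to 0.0442.

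The second, 263345_s_at, had 177 and 184 in red lincomycin seedlings, against 101 and 93.9 in dark lincomycin seedlings, and 1909.6 and 1666 in red seedlings, against 714.5 and 892 in dark seedlings. Its averaged change was 1.03 ± 0.11, with limma adjusted p = 0.0192. This call was lost without 6 of the 8 arrays: the limma adjusted p was 0.153 and 0.189 without either dark lincomycin array, 0.173 and 0.189 without either red lincomycin array, and 0.0658 and 0.0598 without either red array.

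Of the members with a listed gene, the 3 with the lowest p for light averaged over both media did not pass. The values were -0.73 ± 0.24 for scpl40 (limma adjusted p = 0.491), -0.57 ± 0.20 for AGL26 (0.546) and -0.48 ± 0.19 for AT1G27595 (0.580). Without replicate 1 of both the dark and the red group, AGL26 was at -0.75 and AT1G27595 at -0.61. Each group without lincomycin then has 1 array, so that fit takes its spread from the lincomycin arrays alone. For scpl40 the intensities were 62.6 and 50.1 in red lincomycin seedlings, against 71.2 and 118 in dark lincomycin seedlings. Without lincomycin they were 134 and 73.5 after red light, against 179 and 157 in darkness. Red and dark arrays did not overlap within either medium for this gene. Such a separation in both media, in the same direction, was found for 4 members higher and 6 lower after red light, where 3.36% and 3.55% of all probe sets showed it, so these counts of 3.85% and 5.77% of the members lie near the background. Besides scpl40 and AGL26, AT1G66430 was the other listed gene among them, at -0.34.

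CaS, TROL and AT1G52220 were at -0.12, -0.20 and 0.03 for light averaged over both media (SE 0.30, 0.17 and 0.23). AT5G13770 was at -0.05 ± 0.19 and AT4G33550 at -0.18 ± 0.30. A light change was thus not detectable for these genes at this number of arrays.

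**Figure D5:**
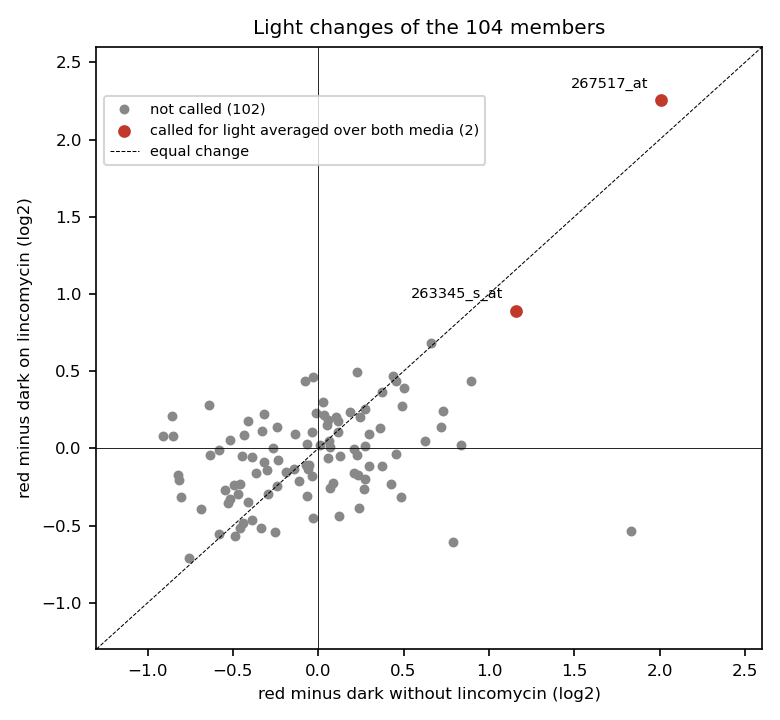
Light change of the 104 members without lincomycin (x axis, log2, red minus dark) and on lincomycin (y axis), with the 2 members called for light averaged over both media in red and the line of equal change dashed. Both called members lie near that line, 267517_at at 2.26 on lincomycin and 2.01 without, and 263345_s_at at 0.89 on lincomycin and 1.16 without. Among the others 267002_s_at stands apart, at -0.53 on lincomycin and 1.83 without.

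The light changes within each medium use arrays that chose the members and are given as values only. On lincomycin they had a median of -0.04 and ran from -0.71 to 2.26, and without lincomycin they had a median of -0.03 and ran from -0.91 to 2.01. The largest gap between the media among the members was that of 267002_s_at, at -0.53 on lincomycin and 1.83 without. In the interaction of light and lincomycin, fitted with limma over all probe sets, 0 of 22746 were called (0%), and 2359 had an unadjusted p under 0.05, 3 of them members. Because each light's lincomycin change entered the rule, this comparison too is a description for the members.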

How the data were processed

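The authors summarised each Affymetrix array with RMA, per the submitters' processing notes, and deposited 1 linear-scale intensity per probe set and array. Its version and which arrays it was run on jointly are not given in the sources used here. Of 22810 probe sets, 64 controls were set aside. Exactly 1 gene was listed for 13513 of the other 22746, several for 503 and none for 8730. Symbols were updated through RefSeq (TAIR10.1). Log2 values of all 8 arrays were fitted with limma 3.58.1 in R 4.3.3 (group means, no block, 4 residual and 3.19 prior degrees of freedom). A probe set was called at a two-sided Benjamini-Hochberg adjusted p under 0.05 over all 22746.

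The members and the 18 lists (242 genes, 48 of them with a named probe set) were chosen with earlier results of these data known. For a list gene with more than 1 probe set the one with the highest mean was used. Genes named in the text were the 20 listed members with the lowest mean change, members in a list, members called for light or else the 3 with the lowest p, 2 members with no listed gene, and those nearest the threshold. Other named members were added after their values were seen. Searches of promoter motifs and of product names were planned and not run, since those sequences and names were not used here. The limma procedure was also run on simulated data with equal spread on all arrays. Alternatives were another scaling, a filter or floor on dim values, other limma settings, a replicate block, other thresholds and leaving out arrays. Figures were made in Python 3.11.15 with pandas 2.3.3, numpy 2.4.6 and matplotlib 3.10.9.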

Additional observations from a re-analysis of the deposited data

How the results depend on the processing

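The rule took 104 probe sets, 49 at a threshold of 1.0 and 201 at 0.6, and 58 to 169 with 1 array left out. It took 100 to 104 under other scalings, the filter and floor on dim values, and group means alone. The members changed with scaling: 92 of the 101 taken with array medians shifted were among the 104, and 94 of the 100 after quantile normalization. Calls for light averaged over both media numbered 68, 34 with low values raised to the 20th percentile (log2 3.51), 765 without replicate 1 of the dark and red groups and 12 to 222 with 1 array left out. For lincomycin in darkness (223 calls) they numbered 341 with array medians shifted, 124 with the floor, 108 with trend and robust, 122 with array weights, 3746 without those 2 arrays and 0 to 1950 with 1 left out. After red light (6 calls) the counts were 18, 0, 21, 31 and 90 in the same order, 1 after quantile normalization, 26 without the dimmest 30% (6824 probe sets) and 0 to 32. Red light without lincomycin gave 43, and 96 with medians shifted, 28 with the floor, 4 with array weights, 949 without the 2 arrays and 0 to 1219. Red light on lincomycin gave 14, and 0 with the floor, 155 with array weights, 150 without the 2 arrays and 0 to 28. The interaction gave 0 in limma, and 0 to 609 with 1 array left out, the 609 without replicate 2 of the dark group. Shifting the medians moved the interaction's median over all probe sets to -0.13, against -0.01. The causes were not tested.

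Replicate numbers did not pair the arrays in all groups. The deviations of same-numbered arrays correlated at 0.44 between the dark and the red group, both without lincomycin. For the rest of the 6 pairs of groups the values ran from -0.33 to 0.13. With the replicate block the calls were 44 for light averaged, 4 for lincomycin in darkness, 1 after red light, 7 for red light without lincomycin, 1 on lincomycin and 0 for the interaction, and 263345_s_at was at adjusted p = 0.0536. Without replicate 1 of the dark and red groups, AT2G37870 was at -0.89, AGL26 at -0.75 and AT1G27595 at -0.61 for light averaged. Those values rest on 1 array in each group without lincomycin. No light value of the 2 called members changed its sign. Of 510 light values recomputed for named members, 14 changed sign with a shift of an SE or more, all for members not called.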
